A study of Mus musculus with 6 samples.

Results

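The 7 genes of water and glycerol transport and of glycerol phosphate metabolism, Aqp1, Aqp3, Aqp7, Aqp9, Gyk, Gpd1 and Gpd2, were followed in macrophages treated with RI-BPI or with a control peptide. The members are the probes whose gene symbol in the platform annotation is one of these 7. Under this rule 6 genes with 13 probes were found, of 19057 genes and 45281 probes on the array. Gyk had no probe in this annotation, so its signal was not analysed here. The genes were chosen from signal differences already seen in this same comparison, so their own differences are given as a description without a test. Only Aqp9 and Gpd2 had a probe that passed the detection filter. Aqp9 was higher with RI-BPI and Gpd2 was lower.

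All arrays held RNA of primary macrophages grown from the bone marrow of wild-type c57Bl6/J mice, 10-week-old males, kept for 12 h with 5 µM of a peptide. The control group of 3 arrays received a control peptide and the other group of 3 arrays received RI-BPI, a retro-inverso peptide made to block the contact of the repressor Bcl6 with its corepressors SMRT and NCoR. The labels call the arrays of a group technical replicates and do not name separate cultures or animals, so errors and p-values here measure the spread between arrays, which may be technical. Total RNA was read on Illumina bead arrays, on which each probe gives a mean bead intensity. In such bulk RNA, fewer expressing cells and less RNA per cell cannot be told apart.

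Aquaporins are membrane channels. Aqp1 passes mainly water, whereas Aqp3, Aqp7 and Aqp9 are aquaglyceroporins, which also let glycerol through. Aqp9 is the broadest of them in the small uncharged solutes it carries and is known from liver and from leukocytes. Inside the cell glycerol kinase, the product of Gyk, makes glycerol 3-phosphate, the backbone of glycerolipids. Gpd1 in the cytosol and Gpd2 on the inner mitochondrial membrane act between glycerol 3-phosphate and dihydroxyacetone phosphate. Together they form a shuttle that passes electrons from cytosolic NADH to ubiquinone.

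A probe counted as detected on an array when its detection p-value, the share of negative control probes at least as bright, was under 0.01. Between 13866 and 14357 probes were detected per control array and between 12931 and 13843 per RI-BPI array. Probes detected on at least 3 of the 6 arrays were kept, which left 13975 probes of 8205 named genes. Arrays of one group correlated across kept probes at r = 0.992 to 0.996 and arrays of different groups at 0.947 to 0.951.

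Aqp9 was near the detection limit with the control peptide and well above it with RI-BPI. The signals of probe ILMN_1214634 were 59.3, 52.3 and 56.5 on the control arrays, detected on 2 of 3, and 503, 433 and 495 on the RI-BPI arrays, detected on 3 of 3. The bead standard errors of these signals were at most 3.17 with control peptide and at most 34.5 with RI-BPI. Every RI-BPI array was far above every control array, and the groups did not overlap. After background correction and quantile normalization the log2 level was 4.76 ± 0.20 (SD, n = 3) in control arrays. In RI-BPI arrays it was 8.83 ± 0.14 (SD, n = 3), which is 4.07 ± 0.12 (SE) higher, or 16.8-fold. This difference ranked 9 among the increases of the 13975 kept probes, whose median difference was -0.003. The size depends on how the dim control signal is treated. Without background correction the difference was 3.12 on the log2 scale, or 8.72-fold, in the authors' deposited normalized table it was 3.15, and the ratio of the mean signals as deposited was 8.51. The spread among control arrays was 1.35 times what the bead errors give, and that among RI-BPI arrays 1.16 times.

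A second Aqp9 probe, ILMN_2443759, which the platform annotation assigns to the same transcript record, was not detected on any array. Its signals were 45.9, 46.1 and 44.5 with control peptide and 40.7, 45.7 and 42.2 with RI-BPI, and the groups overlapped. The rise is thus carried by 1 of the 2 Aqp9 probes.

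**Figure D1:**
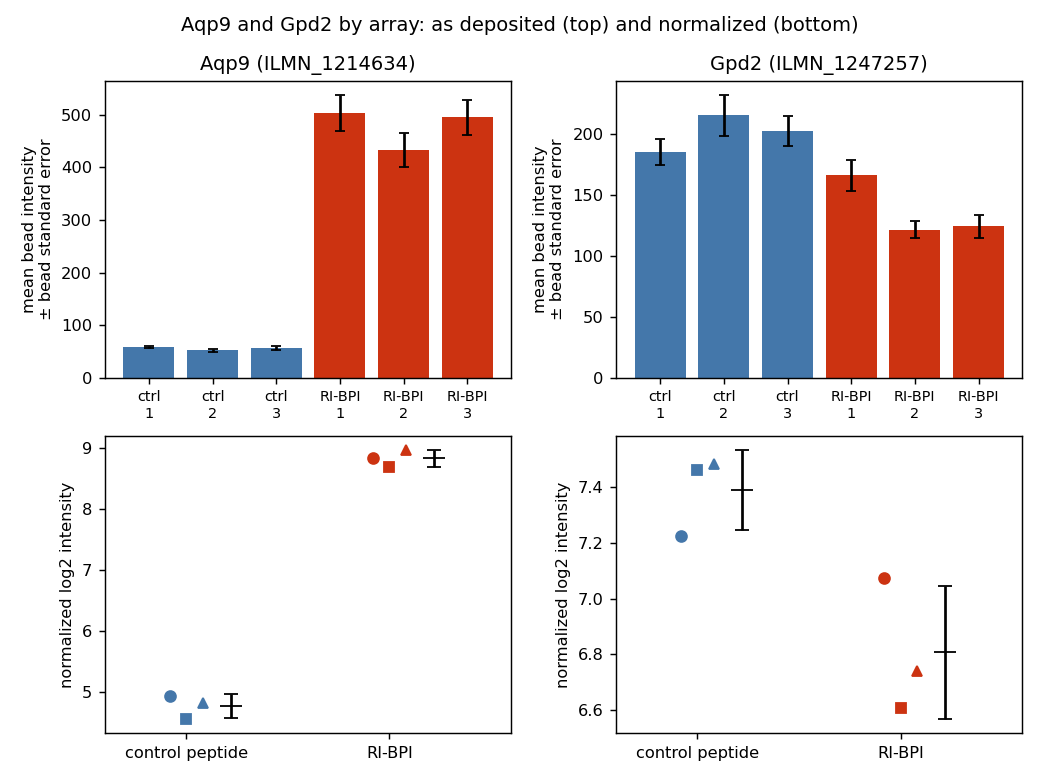
The kept probes of Aqp9 (left) and Gpd2 (right) on each array. The upper panels show mean bead intensity as deposited with the standard error over beads, and the lower panels show normalized log2 intensity per array (circle, square and triangle for arrays 1, 2 and 3) with the group mean and SD beside it; the RI-BPI arrays of Aqp9 lie between 433 and 503 against 52.3 to 59.3 in control.

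Because Aqp9 is the member with the largest difference, the 250 bases before each of its 2 annotated transcription starts are shown (RefSeq, GRCm38.p6, both on the minus strand, 5′ to 3′), searched for 4 motifs on both strands. The capitals mark the only match found. The first window is chr9:71162634-71162883 and the second chr9:71163290-71163539.
Aqp9 start 1: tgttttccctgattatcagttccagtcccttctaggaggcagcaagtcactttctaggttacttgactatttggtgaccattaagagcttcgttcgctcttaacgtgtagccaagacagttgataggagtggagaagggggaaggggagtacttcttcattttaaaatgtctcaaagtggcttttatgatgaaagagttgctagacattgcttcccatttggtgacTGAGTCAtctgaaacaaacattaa
Aqp9 start 2: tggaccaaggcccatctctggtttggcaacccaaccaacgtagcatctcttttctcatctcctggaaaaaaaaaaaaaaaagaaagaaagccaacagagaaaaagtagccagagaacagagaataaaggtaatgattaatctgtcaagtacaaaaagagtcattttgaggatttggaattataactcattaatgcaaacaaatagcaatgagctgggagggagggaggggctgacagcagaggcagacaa

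The capitals in the first window are TGAGTCA, a match to the AP-1 motif TGANTCA, from -24 to -18 counted back from the start. This motif was present in 6.75% of the 32851 windows of the same length in the RefSeq promoter table. The core bound by BCL6 and by STAT factors, TTCNNNGAA, was present in 7.02% of all windows and in 0 of the 9 windows of the member genes. The nuclear receptor half-site AGGTCA was in 14.02% of all windows and in 2 of the 9, a pair of overlapping windows upstream of Aqp7. The heat shock element pair GAANNTTC was in 6.69% of all windows and in 1 of the 9, also upstream of Aqp7. The windows of Aqp1, Aqp3, Gyk and Gpd2 held none of the 4, and no window of Gpd1 was searched.

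The other channels stayed at the level of undetected probes. The water channel Aqp1 had 3 probes, none detected on any array. The brightest reading of the 3 was 53.5 on RI-BPI array 2 at ILMN_2980661, whose other signals were 44.4, 42.9 and 48.7 with control peptide and 49.3 and 47.3 with RI-BPI. The deposited signals of the groups overlapped at each Aqp1 probe; after normalization those of ILMN_2980663, undetected on every array, no longer did. The aquaglyceroporin Aqp3, best known from kidney and skin, had 1 probe, with signals of 45.5, 44.8 and 56.0 with control peptide and 44.6, 46.2 and 46.6 with RI-BPI. Control array 3 alone was detected there (detection p-value 0.00855), and the 2 groups overlapped.

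The adipose glycerol channel Aqp7 had 4 probes, and none was detected on any array. At ILMN_1254953 the signals were 41.5, 40.8 and 42.6 with control peptide and 45.8, 46.5 and 46.5 with RI-BPI, so the groups did not overlap although every value was that of an undetected probe. At the other 3 Aqp7 probes the groups overlapped. The lowest signal of any detected probe lay between 54.1 and 57.5, depending on the array. No fold change is given for these probes, since neither group was above background.

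**Figure D2:**
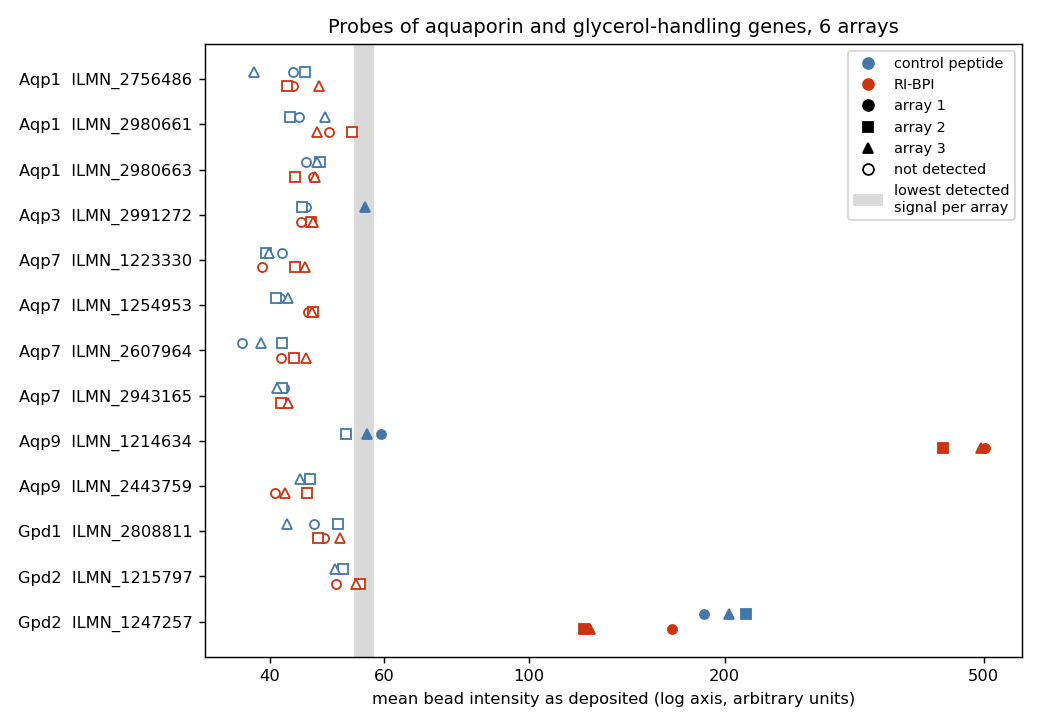
Mean bead intensity as deposited (log axis) of the 13 probes on the 6 arrays. Filled symbols were detected, open symbols were not, and the grey band spans the lowest detected signal of each array; only Aqp9 ILMN_1214634 and Gpd2 ILMN_1247257 have symbols clearly to the right of it.

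Among the glycerol phosphate enzymes, Gpd2 was measured and Gpd1 was not detected. The kept Gpd2 probe, ILMN_1247257, gave 186, 216 and 203 on the control arrays and 166, 121 and 124 on the RI-BPI arrays, with detection on all 6. RI-BPI arrays 2 and 3 were low, RI-BPI array 1 lay between them and the control arrays, and the groups did not overlap. The normalized log2 level was 7.39 ± 0.14 (SD, n = 3) in control arrays. In RI-BPI arrays it was 6.81 ± 0.24 (SD, n = 3), a difference of -0.58 ± 0.13 (SE), or 1.497-fold lower. The spread between the RI-BPI arrays was 2.51 times the bead error at this probe, against 1.12 times between the control arrays and a median of 1.14 times over all kept probes with RI-BPI. By size of decrease the probe ranked 2131 of the 13975 kept probes.

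The second Gpd2 probe, ILMN_1215797, which is assigned to the same transcript record, gave 51.4, 51.8 and 50.4 with control peptide and 50.5, 54.9 and 54.3 with RI-BPI. It was just outside the detection limit, with its lowest detection p-value of 0.0118 on RI-BPI array 2, and its groups overlapped. The decrease seen at the brighter probe thus has no measurement at a second probe. Gpd1 gave 46.7, 50.9 and 42.4 with control peptide and 48.4, 47.4 and 51.2 with RI-BPI, not detected on any array and overlapping between the groups. Of the 2 shuttle enzymes only Gpd2 was thus measured.

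The limma fit across all kept probes called 59.5% of them at a Benjamini-Hochberg adjusted p of 0.05, 29% higher and 30.5% lower, and in 63.3% the log2 values of the groups did not overlap. The 2 kept member probes are among the called ones, 1 higher and 1 lower, but the genes were chosen by this contrast, so that count is no test of them and nothing is read from it. Of the 11 member probes that were not kept, 1 of 66 readings was detected.

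**Figure D3:**
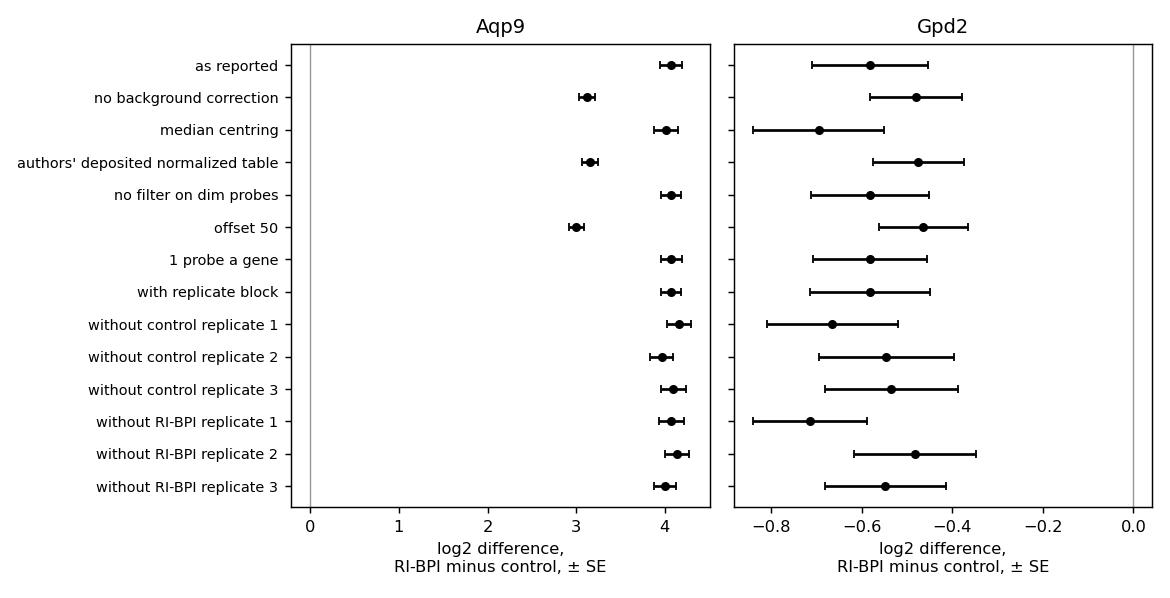
Log2 difference of Aqp9 and Gpd2, RI-BPI minus control, with its standard error, as reported and under each other way of processing. Aqp9 lies between 3.00 and 4.16 and Gpd2 between -0.72 and -0.46, and the Aqp9 values near 3 come from no background correction, the deposited normalized table and an offset of 50.

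The genes whose 6 values were closest to those of Aqp9, by Euclidean distance of log2 values centred on each probe's mean over the 6 arrays, were Rnu6 (distance 0.48), Flrt3 (0.52) and Hspa1a (0.53). Rnu6, a spliceosomal small nuclear RNA, was 3.77 ± 0.11 (SE) higher with RI-BPI and the adhesion molecule gene Flrt3 was 3.74 ± 0.11 higher. The heat shock chaperone gene Hspa1a was undetected with control peptide at that probe, and with background correction its level was at least 15.5-fold higher with RI-BPI. This value depends on the background treatment, as the fitted fold, 20.2 with the correction, was 9.34 without background correction, 9.58 in the authors' deposited normalized table and 8.11 with an offset of 50. Its other kept probes were also higher, by very unequal amounts, and Hspa1a and Hspa1b are near-identical copies that a probe may not separate. Closest to Gpd2 were Slmap (distance 0.15), Homer1 (0.16) and Man1c1 (0.17), with differences of -0.57 ± 0.14, -0.58 ± 0.13 and -0.65 ± 0.12. They have other kept probes, which gave -0.10 for Slmap, -0.47 for Homer1 and -0.87 for Man1c1. All these points come from the same 6 arrays, so likeness to a member mostly follows the peptide difference itself.

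The related genes that are no members were read from 7 lists, each gene through its brightest kept probe. The lists were chosen with earlier results of these data known, so their counts are a description and no list was tested as a set. Of 51 measured genes in these lists 20 rose and 17 fell at an adjusted p of 0.05 in the limma fit. These counts include Gpat3 and Lpin1, whose brightest kept probe was detected in 1 group only. Over all 8205 measured genes 30.3% rose and 30.3% fell. These shares stand beside the counts of each list below. The median difference was 0.14 in the lists and 0.008 over all measured genes. The remaining aquaporins, Mip, Aqp2, Aqp4, Aqp5, Aqp6, Aqp8, Aqp11 and Aqp12, all had a probe, and 0 of these 8 passed the detection filter. Aqp9 was thus the 1 channel of the family that was measured.

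The enzymes that act beside Gyk, Gpd1 and Gpd2 were measured in part. Of 8 other glycerol phosphate and triose phosphate enzymes, 5 were measured, of which 1 rose, 1 fell and 3 did not pass. The aldolase gene Aldoc fell by 0.95 ± 0.11 on the log2 scale (limma adjusted p = 5.23e-07). Tkfc, which phosphorylates dihydroxyacetone, rose by 0.31 ± 0.11 (adjusted p = 0.0209), but not with median centring (adjusted p = 0.24), nor without control replicate 1 (0.0823), control replicate 3 (0.0767) or RI-BPI replicate 3 (0.0608). Triose phosphate isomerase, Tpi1, had a difference of 0.25 at its brightest probe, which did not pass (adjusted p = 0.0697) but did without RI-BPI replicate 2 (0.0267). Its other kept probes gave -0.39, which passed, and -0.36, which did not, so its direction is not settled. The glycerol kinase relatives Gk2 and Gk5 and the dehydrogenase relative Gpd1l were not detected.

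The list of lipolysis and lipid droplet genes, which also holds an inhibitor of lipolysis, moved both ways. Of 13 genes of lipolysis and lipid droplets, 9 were measured, of which 4 rose and 2 fell, with a median difference of 0.05. Hilpda, a lipid droplet protein that inhibits triglyceride lipase, had the largest difference, a rise of 2.61 ± 0.12 (6.13-fold, adjusted p = 1.10e-12) and of 2.72 at its other probe. The lipase Pnpla2, its coactivator Abhd5 and the droplet coat protein Plin2 also rose, by 0.75 ± 0.12, 0.70 ± 0.14 and 0.53 ± 0.12. Lipoprotein lipase, Lpl, fell by 1.51 ± 0.10 (adjusted p = 6.73e-10). The diacylglycerol lipase Daglb fell by 1.32 ± 0.12 (adjusted p = 3.63e-08), and by 0.39 at a dimmer probe.

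The list of glycerolipid synthesis genes was also mixed. Of 19 genes of glycerolipid synthesis, 14 were measured, of which 5 rose and 4 fell, with a median difference of 0.21. The lipid phosphatase gene Plpp3 rose by 2.28 ± 0.11 (4.86-fold, adjusted p = 5.97e-12), whereas its relative Plpp1 fell by 0.80 ± 0.11 (adjusted p = 5.75e-06), with -0.41 at its other probe. Gpat3, an acyltransferase acting on glycerol 3-phosphate itself, had 1 of its 3 probes kept, which passed the filter only through the RI-BPI arrays. Its place among the 5 that rose is therefore given without a p-value. The probe was undetected on the 3 control arrays and, with background correction, was at least 1.71-fold higher with RI-BPI. The fitted fold, 2.16 with it, was 1.56 without background correction, 1.602 in the authors' deposited normalized table and 1.44 with an offset of 50. Its relative Gpat4 had a difference of 0.03, which did not pass (adjusted p = 0.812).

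Of 12 genes of other NADH shuttles and ubiquinone-linked dehydrogenases, 9 were measured, of which 7 fell and 1 rose, with a median difference of -0.52. Over all measured genes 30.3% fell and 30.3% rose. Prodh, among the 7 that fell, was detected on 3 control arrays but on only 1 RI-BPI array. Etfdh, which like Gpd2 passes electrons to ubiquinone, fell by 0.70 ± 0.15 (adjusted p = 0.000535). The oxoglutarate carrier Slc25a11 fell by 0.65 ± 0.12 (adjusted p = 0.000144), with -0.51 and -0.70 at other probes. The aspartate-glutamate carrier Slc25a12 fell by 0.62 ± 0.10 (adjusted p = 5.48e-05), but its dimmer probe, at -0.08, did not pass. The aminotransferase Got2 was the gene of this list that rose, by 0.37 ± 0.12 (adjusted p = 0.0134), but not without RI-BPI replicate 3 (0.0668). The 7 that fell spanned -0.41 for Dhodh to -0.70 for Etfdh, a range limited to called genes. Gpd2, at -0.58, was chosen from this contrast, so nothing is read from its place in that range.

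**Figure D4:**
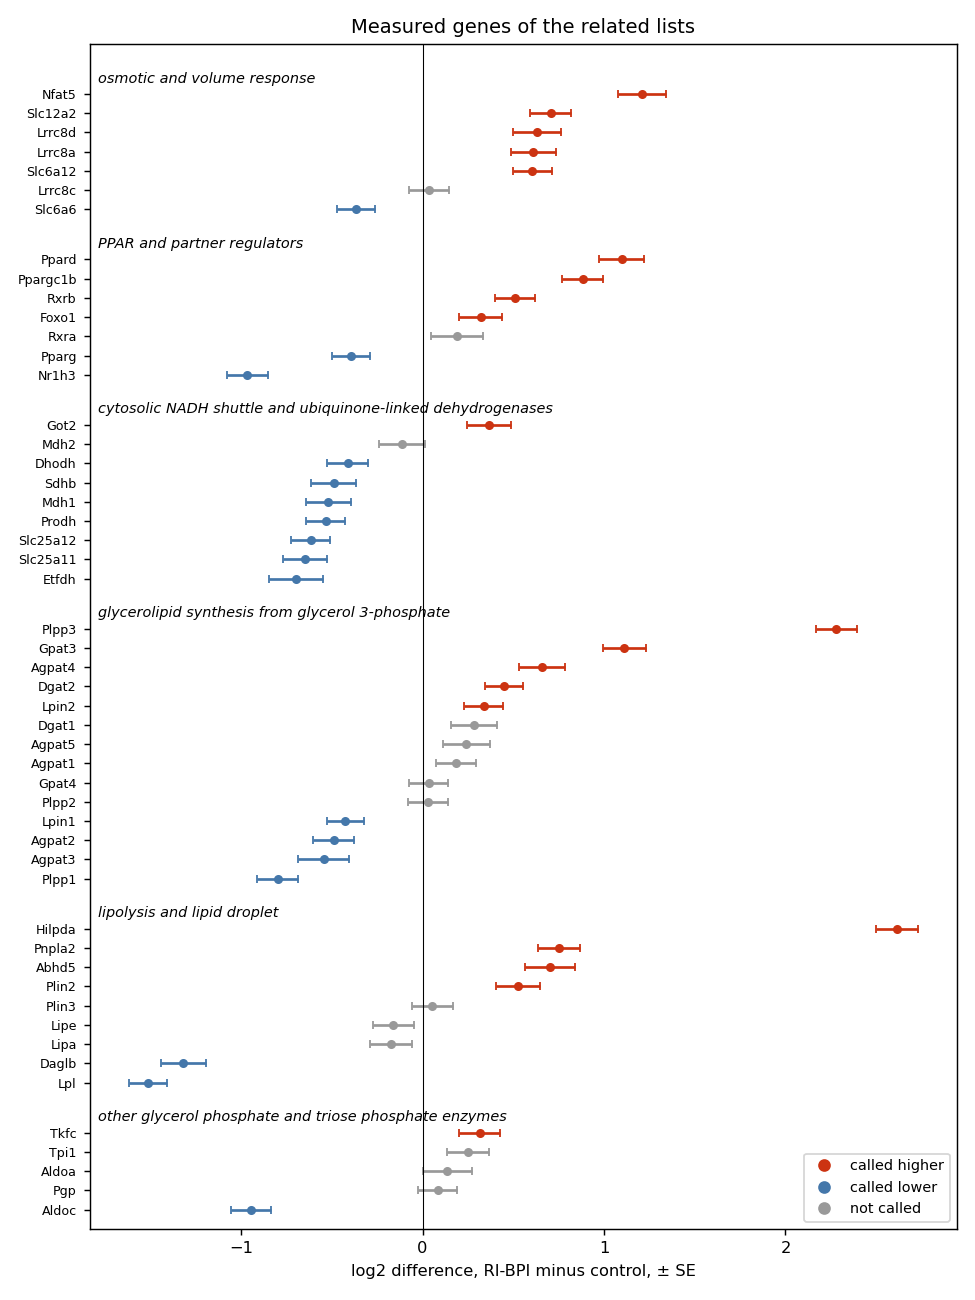
Log2 difference, RI-BPI minus control, with its standard error for the 51 measured genes of the lists, grouped by list. Red genes were called higher, blue genes called lower and grey genes not called. In the NADH shuttle and ubiquinone list 7 of the 9 genes are blue and Got2 is red. The other lists with measured genes also hold both colours.

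Of 11 PPAR and partner regulators, some of which are known to control aquaglyceroporin genes in fat and liver, 7 were measured, of which 4 rose and 2 fell. Ppard rose by 1.10 ± 0.13 (adjusted p = 5.72e-07) and the coactivator Ppargc1b by 0.88 ± 0.11 (adjusted p = 1.85e-06). The oxysterol receptor gene Nr1h3 fell by 0.97 ± 0.11 (adjusted p = 7.79e-07), with -0.66 at its other probe, and Pparg fell by 0.39 ± 0.11. Ppara was not detected. Of 11 genes of the osmotic and volume response, 7 were measured, of which 5 rose and 1 fell, with a median difference of 0.61. Over all measured genes 30.3% rose and 30.3% fell. Nfat5, the transcription factor of the response to hypertonicity, rose by 1.21 ± 0.13 (adjusted p = 2.29e-07) and by 1.16 at its other probe. The cation chloride cotransporter Slc12a2 rose by 0.71 ± 0.11 (adjusted p = 2.65e-05) and the volume-regulated anion channel subunit Lrrc8d by 0.63 ± 0.13 (adjusted p = 0.000414). The taurine transporter Slc6a6 fell by 0.37 ± 0.11 at its brightest probe, but rose by 0.60 ± 0.11 at a dimmer one, so its direction is not settled.

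Markers of the labelled cell type were present. All 7 macrophage markers with a probe, among them Csf1r, Adgre1 and Lyz2, passed the filter. With RI-BPI 4 of them were lower and 0 higher, beside 30.3% lower and 30.3% higher over all measured genes. The summed background-corrected intensity of the 7 was 47080 to 51180 with control peptide and 45720 to 46850 with RI-BPI. Of the markers with a probe for hepatocytes and neutrophils, other cells known to hold Aqp9, only S100a8 was detected. All 6 hepatocyte markers were undetected on every array, with summed intensities of 13.1 to 19.5 and 18.1 to 22.3. Of 7 neutrophil markers with a probe, S100a9, Ngp, Camp, Ltf, Elane and Mpo were undetected on every array, and S100a8 passed and was 0.36 ± 0.11 higher (adjusted p = 0.0109, and 0.0635 without control replicate 2), so that the sum went from 323 to 378 in control to 421 to 494 with RI-BPI. The part of this or of any other marker shift in the Aqp9 and Gpd2 values was not tested. All 5 erythroid markers with a probe and all 6 markers of fibroblasts and stroma were undetected. Of 6 adipocyte markers with a probe only Pparg passed, and Adipoq, Plin1, Fabp4, Cidec and Lep were undetected. Of 6 endothelial markers only Vwf passed the filter, and it was 1.16 ± 0.12 higher. Cdh5, Kdr, Tek and Emcn were undetected, and Pecam1 was detected on too few arrays to be kept. The sum of the endothelial list went from 167 to 213 in control to 363 to 442 with RI-BPI. Of 6 keratinocyte markers only Krt10 passed the filter, and its difference of 0.16 did not pass the test.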

How the data were processed

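The 6 arrays are 3 of macrophages with control peptide and 3 with RI-BPI, grouped by their titles. Per the file headers, the deposited main table is not normalized and holds each probe's mean bead intensity, its bead number and standard error and a detection p-value. The submitters' processing notes name GenomeStudio; a genome build was not given in the sources used here. A second table of normalized intensity values, deposited by the authors, gives no method; its column medians lie near 46.3, and it served only as an alternative.

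Gene symbols came from the platform annotation, which gave 34885 of 45281 probes 1 symbol, 18 several and 10378 none. List genes were matched by Entrez identifier through RefSeq (GRCm38.p6). Intensities were background-corrected with normexp in limma (version 3.58.1, R 4.3.3), inferring the background from the detection p-values, with an offset of 16, then quantile-normalized and put on the log2 scale. The offset pulls the differences of dim probes towards 0. RI-BPI was compared with control by lmFit and eBayes over the 13975 kept probes, with Benjamini-Hochberg adjustment over all of them; the fit was tested on simulated data. Where a group was undetected on its 3 arrays, the change is "at least N-fold" against, per array, the lowest detected value or the probe's own, whichever was higher. The precision is limited by the number of arrays.

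The members and lists were chosen with earlier results of these data known. Named are all members and up to 3 called genes per list with the largest differences. Named too are the 3 genes nearest in pattern to the member with the largest rise and to the one with the largest fall. Pnpla2, Abhd5, Plin2, Pparg, Tpi1, Gpat4, Slc6a6, Dhodh and Got2 were named after their values were seen. So were Lpin1, Agpat3, Prodh, the markers and undetected relatives. The motifs and their windows were also picked after the data were seen. The replicate numbers did not pair the arrays: deviations of same-numbered arrays from their group means correlated at 0.03, -0.007 and 0.03. Alternatives were another background treatment, scaling, filter, unit tested, a replicate block and each array left out.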

Additional observations from a re-analysis of the deposited data

How the results depend on the processing

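Aqp9 and Gpd2 kept their direction under all 13 alternatives, and so did each other gene whose change the text reports from a test. Aqp9 was 3.12 without background correction, 3.15 in the authors' deposited normalized table and 3.00 with an offset of 50, against 4.07. The first and the last of these keep a larger constant in every signal by construction, and for the deposited table the cause was not tested. Leaving out 1 array gave 3.96 to 4.16, and for Gpd2 -0.72 to -0.48. With 1 probe a gene, 2517 were called higher and 2513 lower, in place of 4059 and 4256 probes, since fewer features were tested. With median centring 3068 probes were higher and 4789 lower, and the median of all probes was -0.10. With the replicate block 4061 probes were higher and 4255 lower. Flrt3 and Hspa1a moved with the same 3 settings as Aqp9, to between 2.92 and 3.26. Calls were lost by Tkfc in 6 of the 13 alternatives, among them no background correction (adjusted p = 0.0597) and an offset of 50 (0.0616), by Got2 without the filter (0.0672) and without RI-BPI replicate 3, and by S100a8 without control replicate 2. Tpi1 gained a call without background correction (0.0340), with an offset of 50 (0.0345) and without RI-BPI replicate 2. Readings of 11 of the 13 member probes near background limit what can be said of Aqp1, Aqp3, Aqp7 and Gpd1: a difference in them was not detectable here. The number of cultures behind each group is not stated.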
